A study of Mus musculus with 2 samples.

Results

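Pericytes of adult mouse skeletal muscle were taken from 2 single-cell RNA-seq libraries of Hic1-lineage cells. A barcode counted as a pericyte when it had at least 1500 UMIs (unique molecular identifiers, each standing for 1 captured transcript), at most 10% of them mitochondrial, 0 UMIs of the endothelial genes Cdh5 and Kdr, and at least 2000 CPM (UMIs per 1000000 UMIs) from Abcc9, Kcnj8 and Art3 together. The members were thus chosen by the measured counts of these 5 genes. This gave 778 pericytes among 14654 kept cells and 17431 barcodes. The E10-P56 library held 394 of 6087 kept cells (6.47%, exact 95% Clopper-Pearson interval 5.87 to 7.12) and the adult pulse library 384 of 8567 (4.48%, 4.05 to 4.94). With a minimum of 3000 UMIs in place of 1500, the shares were 4.22% and 2.85%.

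Both libraries came from Hic1CreERT2/CreERT2;Rosa26LSLtdTomato/tdTomato mice on C57BL/6J, in which tamoxifen switches on tdTomato in cells that use the Hic1 promoter at that moment and in all their descendants. For E10-P56, dams received 7.5 mg tamoxifen by gavage at embryonic day 10, and for the adult pulse, mice of 8 weeks received 5 daily injections of 2.5 mg. The labels give postnatal day 56 as the age at collection for both groups, while the study's text gives a later day for the adult pulse. The methods for adult muscle describe muscle at postnatal day 56 and do not name the adult pulse. Per these methods, tibialis anterior muscles of 2 hindlimbs were pooled. Viable tdTomato+ cells were sorted away from endothelial, immune and red blood cells by CD31, CD45, CD117, CD11b, F4/80 and Ter119. There was 1 library per labelling time. Library, labelling time, tamoxifen dosing, mice, Cell Ranger version and, by the study's text, age at collection differed together and cannot be told apart. No test was therefore possible between conditions. Levels of a class of cells are the CPM of its summed UMIs, and every interval is an exact 95% interval that covers counting error only.

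Pericytes are mural cells that lie within the basement membrane of capillaries, in contact with the endothelium. Endothelial PDGF-B draws them to the vessel through PDGFRB, and contact with endothelial Notch ligands acts on them through NOTCH3. Abcc9 and Kcnj8 encode the SUR2 and Kir6.1 subunits of an ATP-sensitive potassium channel that sets membrane potential, and with it the tone of small vessels. Rgs5 encodes a GTPase-activating protein that shortens signals from G-protein-coupled receptors.

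In 36 pairs of chromosomal neighbours both members were at least 4-fold above other kept cells, and the promoters of 2 of these pairs are shown as examples. Kcnj8 and Abcc9 helped to choose the cells, so their high level in pericytes follows from the rule. The windows run from 250 bases before to 50 bases after the start of transcription (RefSeq, GRCm38.p6, 5′ to 3′ on the coding strand). Capitals mark matches, on either strand, to the letters TGGGAA (bound by RBPJ, the Notch effector), CAGCTG (an E-box) and GGGCGG (an SP site), which were searched with TGTTTAC (forkhead), AGGTGTGA (T-box) and CCGGAAG (ETS). No searched motif overlapped another in these windows.
Kcnj8 (chr6:142571565-142571864, minus strand): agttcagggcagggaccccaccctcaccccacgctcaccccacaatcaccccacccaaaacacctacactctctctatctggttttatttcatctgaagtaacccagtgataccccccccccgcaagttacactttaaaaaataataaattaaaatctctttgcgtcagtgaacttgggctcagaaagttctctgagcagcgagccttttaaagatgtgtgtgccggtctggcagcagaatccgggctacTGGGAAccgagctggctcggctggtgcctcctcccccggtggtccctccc
Abcc9 (chr6:142702225-142702524, minus strand): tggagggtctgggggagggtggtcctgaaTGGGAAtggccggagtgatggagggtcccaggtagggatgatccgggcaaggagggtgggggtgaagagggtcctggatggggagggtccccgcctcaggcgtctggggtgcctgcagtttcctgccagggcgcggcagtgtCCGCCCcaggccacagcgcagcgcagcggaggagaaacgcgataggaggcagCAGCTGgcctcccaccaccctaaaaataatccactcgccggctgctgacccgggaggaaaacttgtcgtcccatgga
Rgs5 (chr1:169655251-169655550, plus strand): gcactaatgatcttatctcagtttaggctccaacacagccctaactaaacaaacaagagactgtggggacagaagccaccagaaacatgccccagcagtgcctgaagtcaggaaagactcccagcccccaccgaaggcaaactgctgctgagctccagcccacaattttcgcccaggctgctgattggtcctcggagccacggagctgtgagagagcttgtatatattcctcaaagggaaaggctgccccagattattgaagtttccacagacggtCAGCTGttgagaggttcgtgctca
Rgs4 (chr1:169747593-169747892, minus strand): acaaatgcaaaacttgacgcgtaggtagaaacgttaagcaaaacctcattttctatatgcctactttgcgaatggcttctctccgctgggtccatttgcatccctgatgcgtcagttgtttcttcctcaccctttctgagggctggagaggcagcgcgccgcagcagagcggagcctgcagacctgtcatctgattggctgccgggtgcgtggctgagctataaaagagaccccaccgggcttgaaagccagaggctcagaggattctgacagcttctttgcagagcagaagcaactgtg
The RBPJ letters occurred 1 time each in the Kcnj8 and Abcc9 windows. They were found in 25.6% of 32851 RefSeq windows, in 25.7% of the 4876 windows of genes that entered the comparison with other kept cells, and in 34.3% of the 213 windows of genes at least 4-fold above all other kept cells in both libraries (4.79% of genes tested were). For the E-box letters these 3 shares were 16.3%, 16.7% and 26.3%, and for the forkhead letters 3.65%, 3.08% and 4.69%. For the other motifs the genes above had a lower share than all genes that entered: SP letters were in 35.7%, 73.2% and 65.7%, ETS letters in 8.86%, 22.1% and 8.92%, and T-box letters in 1.28%, 0.738% and 0.469%. These matches describe letters in a window and were not tested as sites.

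Because Abcc9, Kcnj8 and Art3 chose the cells, their levels are a description. Kcnj8 was at 1864 CPM in E10-P56 pericytes (1793 to 1937) and 2588 CPM in the adult pulse (2503 to 2675), against 23.2 and 9.19 CPM in all other kept cells. Abcc9 was at 2187 and 2148 CPM (33.6 and 14.1 CPM in other kept cells), and Art3, an ADP-ribosyltransferase family gene, at 1126 and 1824 CPM. All 3 genes had a UMI in 336 of the 394 E10-P56 pericytes and in 348 of the 384 of the adult pulse, and 2 cells and 1 cell met the rule on a single gene.

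The median summed level of the 3 genes was 5049 CPM in E10-P56 pericytes and 6759 in the adult pulse, on a median of 16 and 20 UMIs. The lowest members stood at 2005 and 2016 CPM and the highest cells outside at 1995 and 1948. Just inside the limit, below 2500 CPM, lay 24 and 21 members, and just outside, from 1500 CPM, lay 36 and 20 cells. Rgs5, which the rule did not use, had a median of 9191 CPM in those 24 members and 9652 in those 36 cells. In the adult pulse it was 4585 inside and 8747 outside. Cells just inside and just outside the limit were therefore not separated by Rgs5. Over all members its median was 13139 CPM in E10-P56 and 11670 CPM in the adult pulse. Of the cells outside the rule with 0 Cdh5 and Kdr UMIs, 215 of 5434 in E10-P56 versus 75 of 7975 in the adult pulse had Rgs5 at 5000 CPM or more.

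**Figure D1:**
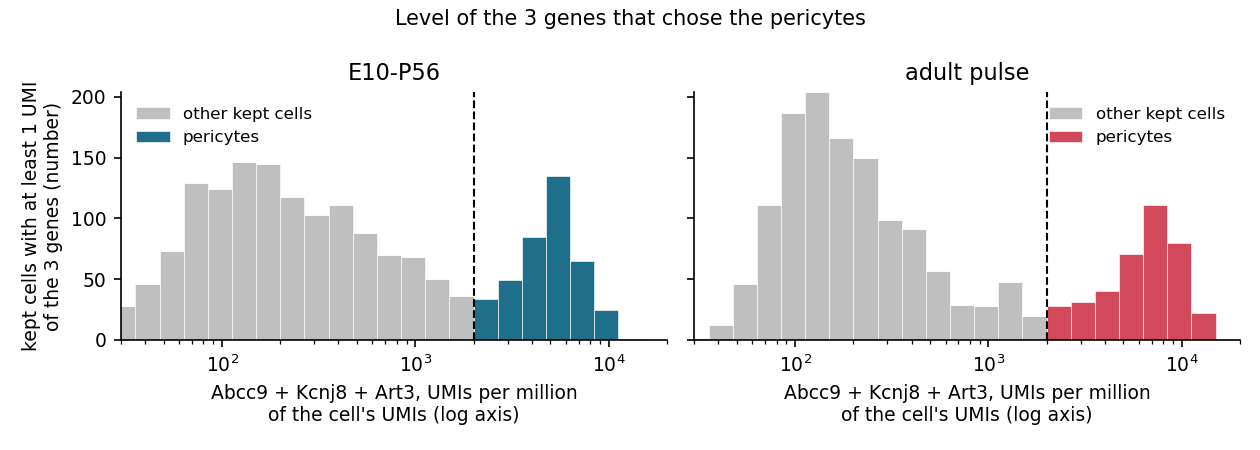
Number of kept cells with Cdh5 and Kdr at 0 (vertical axis) by the summed level of Abcc9, Kcnj8 and Art3 in CPM (log axis), for each library. Cells without a UMI of the 3 genes, and those below the left end of the axis, are not drawn. The dashed line is the limit of 2000, with 394 and 384 pericytes to its right and a broad range of lower cells to its left.

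Pericytes were shallow cells. Their median was 3201 UMIs in E10-P56 versus 3203 in the adult pulse, against 10030 and 8142 in fibroblast-rule cells (at least 1 UMI each of Pdgfra and Dpt, 3833 and 6348 cells). When each cell was thinned to 1500 UMIs, pericytes showed a median of 946 and 921 genes, against 855 and 827 in fibroblast-rule cells. The mitochondrial share had a median of 2.46% and 2.94%. The libraries shared 15 barcode sequences, none of them a pericyte in both.

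Against all other kept cells, pericytes were high in most genes entered on the lists of ion channels and transporters and of vessel tone, and low in most of those on the lists of interstitial matrix and of cytokines. Of 6288 genes with a mean of at least 20 CPM in both comparisons, 301 were at least 4-fold above other kept cells in both libraries (4.79% of genes) and 277 at least 4-fold below (4.41%). The mean was taken over pericytes and other kept cells, so a gene could enter on its level in either class alone. Folds of at least 10 in both libraries were seen for 123 genes and of at least 25 for 44. The median gene was itself 0.31 (E10-P56) and 0.34 (adult pulse) above on the log2 scale. Since the cells were selected on the same counts, these numbers describe them and support nothing further. Among the highest genes by the smaller of both folds were Cpm (carboxypeptidase M), Slc35f1, Kcnj8, Adrbk2, Plxdc1, Ccdc85a and Abcc9. Further down the same order were Rerg, Dcbld1, Slc4a8 (a sodium bicarbonate transporter), Agap2, Impa2, Scn3a (a voltage-gated sodium channel), Arap2 and Car2 (carbonic anhydrase 2, 32.9-fold and 118-fold above). The lowest genes were the secreted factors Edn1, Ptx3, Sfrp2, Cxcl13, Rbp4 (a retinol carrier) and Cilp, the protease Mmp3, the prostacyclin synthase Ptgis, Clmp and Slc48a1. Cxcl13, a chemokine, was at 25.2 and 3.70 CPM in pericytes against 479 and 83.2 CPM in other kept cells, and Cilp at 9.36 and 21.5 against 193 and 408 CPM.

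**Figure D2:**
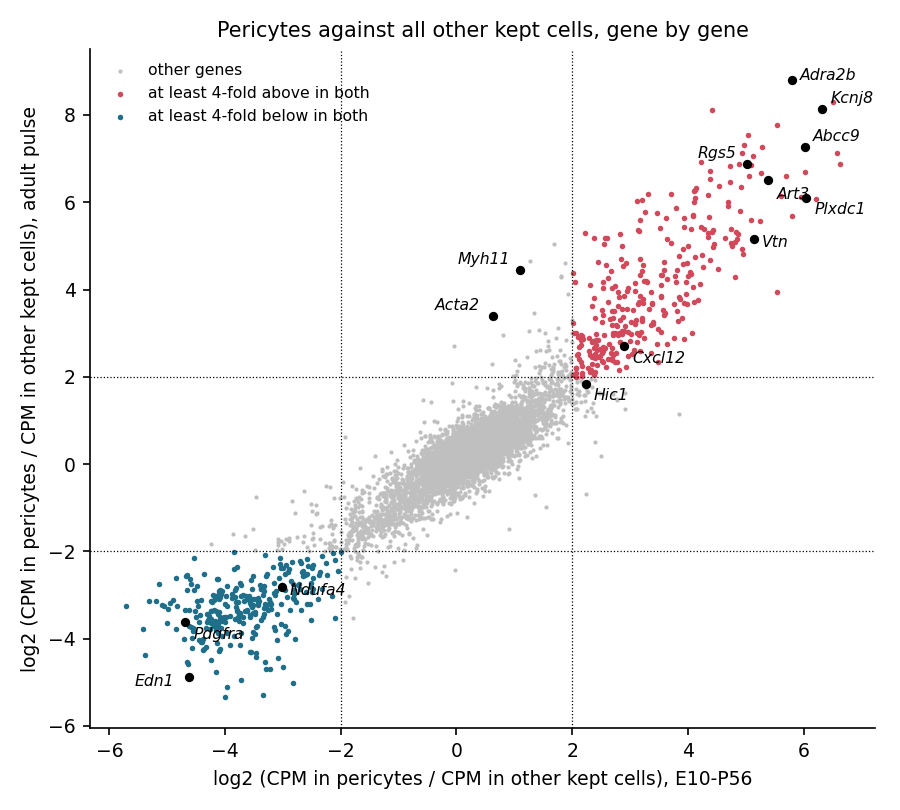
Each point is 1 of 6288 genes, with the log2 ratio of CPM in pericytes to CPM in all other kept cells in E10-P56 (horizontal axis) and in the adult pulse (vertical axis). Dotted lines mark 4-fold; 301 genes were above and 277 below in both libraries, while Acta2 and Myh11 were past 4-fold in the adult pulse alone.

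Of the 18 other pericyte markers that entered, 14 were at least 4-fold above other kept cells in both libraries and none below. Rgs5 was at 13896 CPM in E10-P56 pericytes and 12032 CPM in the adult pulse, 32.6-fold and 117-fold above other kept cells. Pdgfrb, the receptor for PDGF-B, was at 2058 and 1908 CPM (15.3-fold and 12.9-fold). Higd1b was at 636 and 588 CPM, and Vtn, which encodes vitronectin, at 2958 and 3044 CPM, 35.3-fold and 35.6-fold above other cells. Cspg4, the NG2 proteoglycan, Mcam and Notch3 were each at least 7.81-fold above in both libraries, whereas Anpep (CD13), often used as a pericyte marker, was below other cells (52.6 against 73.7 CPM in E10-P56, and 38.5 against 81.7 CPM in the adult pulse). Desmin (Des) was at 236 and 199 CPM. Atp13a5 was at 0 in both libraries.

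Markers of most other cell types were low. Of the 8 immune markers, 7 were at 0 in E10-P56 versus 8 in the adult pulse, and the summed level of the red blood cell list was 0.72 and 0.741 CPM. Schwann cell markers summed to 26.6 and 21.5 CPM, perineurial markers to 20.9 and 8.89 CPM, tenocyte markers to 91.4 and 79.3 CPM, and myofibre and satellite cell markers to 10.1 and 27.4 CPM. Beyond Cdh5 and Kdr, which the rule set to 0, the endothelial gene Pecam1 was at 1.44 and 8.89 CPM and Cldn5 at 0 and 0.741 CPM. The endothelial list as a whole summed to 1537 and 1045 CPM, most of it Fabp4, a fatty acid binding protein also found in fat cells (994 and 547 CPM), and Esam (357 and 371 CPM), an adhesion molecule that was 17.3-fold and 63.7-fold above other kept cells.

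Fibroblast genes were the exception. None of the 15 fibroblast markers was at 0, and their sum was 5876 CPM in E10-P56 and 8327 CPM in the adult pulse, 7.3% and 10.6% of the sum in fibroblast-rule cells. The single markers stood at 3.24% to 8.33% of the fibroblast level in E10-P56 (median 6.21%) and at 6.54% to 12.8% in the adult pulse (median 8.65%). A UMI of Pdgfra or Dpt was present in 64 E10-P56 pericytes (16.2%) and 62 adult pulse pericytes (16.1%). Without those cells, the sum was 4710 CPM in E10-P56 and 3377 CPM in the adult pulse, 5.86% and 4.3% of the fibroblast level. Their part in the results below was not tested, other than by leaving out those cells.

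Of the ion channels and transporters that entered, most were above other kept cells. A gene could enter on its level in pericytes alone, and genes that did not enter are not covered. Of 39 genes on the list, 17 entered, 14 of them at least 4-fold above in both libraries and 1 below, with a median log2 ratio of 3.20 in E10-P56 versus 4.32 in the adult pulse. Cacna1c, the pore of the L-type calcium channel, was at 166 and 113 CPM, and its auxiliary subunit Cacnb2 at 78.5 and 78.5 CPM. The calcium-activated chloride channel Ano1 was at 307 CPM in E10-P56 (20.6-fold above) and 198 CPM in the adult pulse (51.0-fold above). Kcna5, Kcne4, Trpc1, Trpv2 and Slc16a12 were also above.

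Gap junction genes lay on both sides. Gja4 (connexin 37) was at 498 and 442 CPM, 18.8-fold and 122-fold above other cells, and Gjc1 (connexin 45) at 471 and 370.4 CPM, against 52.7 and 28.4 CPM. Gja1 (connexin 43) was at 12.2 and 10.4 CPM, 13.2-fold and 14.7-fold below. Atp1b2, a sodium pump beta subunit, was 20.5-fold and 71.6-fold above. Slc12a2, the sodium-potassium-chloride cotransporter, was at 1161 and 409.7 CPM.

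Of the receptors and enzymes of vessel tone that entered, most were above other kept cells. Of 41 measured genes on the list, 20 entered, 15 of them at least 4-fold above in both libraries and 1 below, with median log2 ratios of 3.08 and 3.39. Both endothelin receptors were among them. Ednrb was at 576 CPM in E10-P56 pericytes (537 to 617) and 493 CPM in the adult pulse (457 to 532), 38.5-fold and 101-fold above other cells, and Ednra at 292 and 236 CPM, 13.7-fold and 19.9-fold above. The ligand gene Edn1 was among the lowest genes, with 1 and 2 UMIs in the 2 groups of pericytes against 53.4 and 65.7 CPM in other kept cells. Among the other receptors, Agtr1a (angiotensin II) was at 231 and 276 CPM, S1pr3 (sphingosine 1-phosphate) at 446 and 386 CPM, and Avpr1a (vasopressin) at 43.2 and 65.2 CPM.

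Among adrenergic receptors, Adra2b was above other cells. Adra2b was at 61.9 CPM in E10-P56 (49.5 to 76.5) and 80.0 CPM in the adult pulse (65.6 to 96.6), against 1.11 and 0.18 CPM in other kept cells. Adra1a was at 30.2 and 23.7 CPM (3.22 and 4.79 CPM in other cells), Adra1b at 0 and 1.48 CPM and Adra1d at 0 and 3.70 CPM. Ramp1, a coreceptor for the dilator CGRP, was the gene of this list below other cells, with 2 UMIs in E10-P56 pericytes (38.7 CPM in other cells) and 7.41 CPM in the adult pulse (93.8 CPM in other cells).

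Of the enzymes on the same list, the subunits of soluble guanylate cyclase, which binds nitric oxide, were at 1199 and 1412 CPM for Gucy1a3 (17.4-fold and 78.3-fold above) and at 723 and 789 CPM for Gucy1b3 (25.8-fold and 63.8-fold above). Gucy1a2 was 15.9-fold and 12.7-fold above. The cyclic GMP-dependent kinase Prkg1 was at 122 and 122 CPM, its substrate Mrvi1 (IRAG) at 156 and 148 CPM, and the phosphodiesterases Pde5a and Pde3a were 5.41-fold and 6.67-fold above in E10-P56. Pde8b and Pde4c, which degrade cyclic AMP, were 62.3-fold and 48.8-fold above in E10-P56 and 69.1-fold and 71.1-fold above in the adult pulse. Rgs4, the neighbour of Rgs5, was at 1136 and 628 CPM, and Adrbk2, a kinase that silences activated G-protein-coupled receptors, was 74.3-fold and 66.9-fold above. Of the 22 Rgs family genes on the list, 3 entered and 2 (Rgs4 and Rgs5) were above.

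Notch pathway genes were partly above other cells. Of 25 genes, 12 entered and 6 (Notch1, Notch3, Jag1, Maml3, Heyl and Nrarp) were at least 4-fold above in both libraries, with none below and median log2 ratios of 1.86 and 2.03. Notch3 was at 1170.1 CPM in E10-P56 (1114 to 1228) and 854 CPM in the adult pulse (806 to 905), 17.1-fold and 52.0-fold above other cells. Heyl, a Notch target gene, was at 309 and 433 CPM, 27.1-fold and 32.1-fold above. The ligand Jag1 was at 309 and 352 CPM, Notch1 at 135 and 183 CPM, and the feedback gene Nrarp at 49.0 and 47.4 CPM. Hes1, a target in many tissues, was 2.99-fold and 3.43-fold above. Rbpj, the DNA-binding effector, was below other cells at 74.9 and 100.0 CPM, against 131 and 205 CPM. The targets Hey1 and Hey2 did not enter, with Hey2 at 4.32 and 10.4 CPM in pericytes.

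Hic1, the gene that drives the lineage label, had transcripts in pericytes of both libraries. It was at 202 CPM in E10-P56 pericytes (179 to 227) and 148 CPM in the adult pulse (128 to 170.2). In fibroblast-rule cells it was at 44.4 CPM in E10-P56 (42.5 to 46.3) and 43.0 CPM in the adult pulse. The CreERT2 feature was at 8.64 and 6.67 CPM. The reporter tdTomato was at 2321 and 3226 CPM in pericytes, 1.90-fold and 1.58-fold above other kept cells, all of which were sorted for it.

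Of 51 measured transcription factors of mural and mesenchymal cells, 33 entered, 9 of them at least 4-fold above and 4 below in both libraries, with median log2 ratios of 0.59 and 0.47. The high ones were Tbx2, Tbx3, Foxs1, Heyl, Mef2a, Mef2c, Epas1, Nr2f1 and Nr2f2. Epas1, which encodes HIF-2 alpha, was at 398 and 449.7 CPM, 9.31-fold and 23.8-fold above, while Hif1a was 1.30-fold below in E10-P56 and 1.35-fold above in the adult pulse. Tbx3 was at 210.3 and 157 CPM, and Foxs1 was 11.5-fold and 14.5-fold above. Ebf1 was at 2597 and 2932 CPM, 2.65-fold and 2.37-fold above and so short of the 4-fold limit. The low ones were Prrx2, Scx, Klf2 and Klf4. Klf4 was 22.6-fold and 11.3-fold below, Osr1 7.41-fold and 3.24-fold below. Tcf15, a bHLH factor outside the list, was 28.7-fold and 35.6-fold above. Foxf2, Zic1 and Lef1 were at 0 in both libraries.

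Contractile genes that entered were mostly above other kept cells in the adult pulse and less so in E10-P56, with median log2 ratios of 3.40 and 1.37. Of 15 smooth muscle contractile genes that entered, 3 (Myl9, Mylk and Ppp1r14a) were at least 4-fold above in both libraries. Acta2, smooth muscle actin, was at 1305 CPM in E10-P56 pericytes and 822 CPM in the adult pulse, yet 1.55-fold above other cells in E10-P56 and 10.5-fold in the adult pulse. The other kept cells differed between the libraries, with Acta2 at 841 CPM in E10-P56 and 78.0 CPM in the adult pulse, and the E10-P56 library held 137 VSMC-rule cells (vascular smooth muscle cells: Acta2 at least 5000 and Cnn1 with Smtn at least 400 CPM) where the adult pulse held 9. Myh11 was at 488 and 395 CPM. Calponin (Cnn1) had 1 UMI in E10-P56 pericytes and none in the adult pulse, where 3 UMIs would be 2.22 CPM, and Actg2 was at 2.16 and 0 CPM. The coactivator Myocd was at 2.88 and 2.22 CPM.

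**Figure D3:**
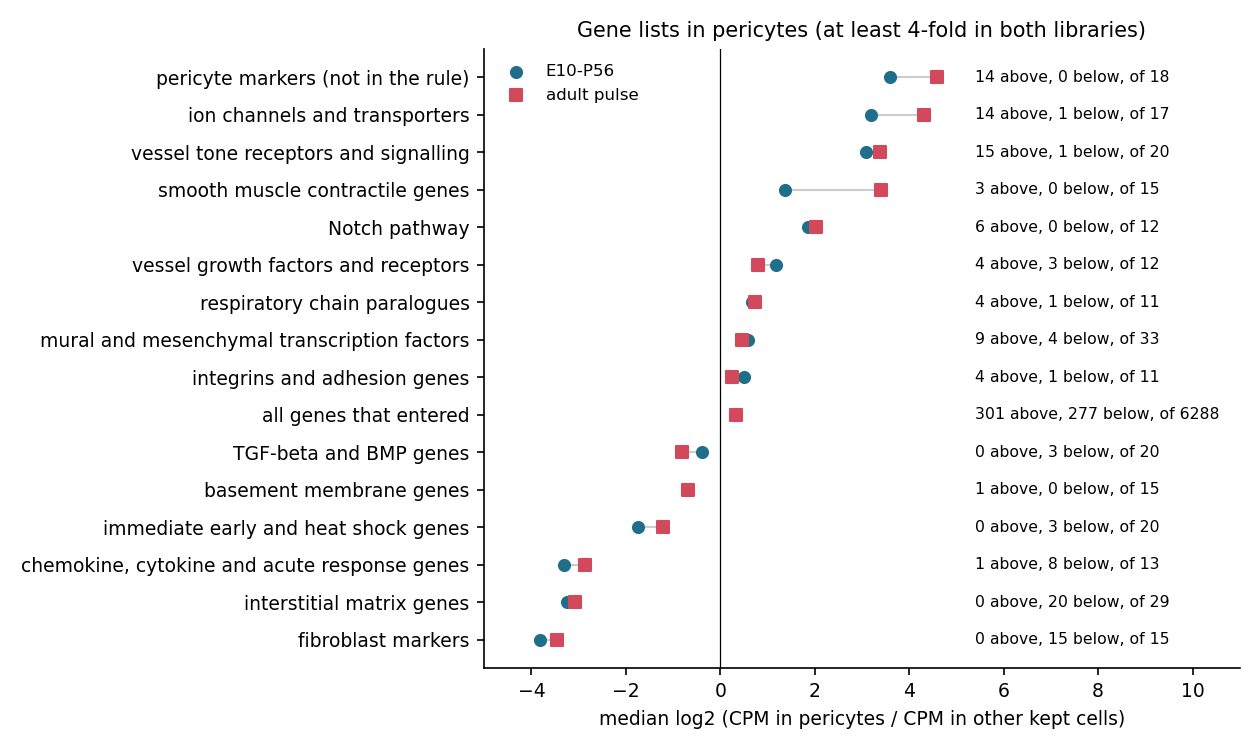
Median log2 ratio of CPM in pericytes to CPM in all other kept cells for each gene list with at least 10 genes entered, in E10-P56 (circles) and the adult pulse (squares). The text at the right counts genes at least 4-fold above or below in both libraries, and the row of all genes gives the background of 301 above and 277 below.

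Pairs of respiratory chain paralogues differed within the pair. Of 11 genes entered on that list, 4 (Cox4i2, Ndufa4l2, Higd1b and Cox7a1) were at least 4-fold above and 1, Ndufa4, below. Cox4i2, the hypoxia-linked form of subunit IV of cytochrome c oxidase, was at 812 CPM in E10-P56 (33.0-fold above) and 504 CPM in the adult pulse (185-fold above), and the common form Cox4i1 stood at 726 and 631 CPM against 561 and 515 CPM in other cells. Ndufa4l2 was at 2183 and 2128 CPM, 20.3-fold and 36.9-fold above. Its paralogue Ndufa4 was at 55.4 and 49.6 CPM, 8.11-fold and 7.00-fold below. Higd1a, the paralogue of Higd1b, was at 73.4 and 57.0 CPM against 152 and 81.2 CPM in other cells. Cox7a1 was at 48.2 and 49.6 CPM, 6.97-fold and 7.76-fold above.

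Genes for signals between mural cells and endothelium lay on both sides. Cxcl12, a chemokine for endothelial and haematopoietic cells, was at 2571 and 2259 CPM, 7.47-fold and 6.54-fold above. Angpt2 was at 62.6 and 43.0 CPM (7.26-fold and 11.7-fold above), whereas Angpt1, the ligand that mural cells of other vessels supply to TIE2, was at 4.32 and 5.93 CPM and below other cells (36.8 and 28.8 CPM). Vegfa was 11.7-fold and 6.32-fold below. Plxdc1, a surface protein first described in tumour vessels, was at 385 and 313 CPM, 66.1-fold and 68.6-fold above. Of 12 genes entered on the vessel growth factor list, 4 (Angpt2, Nrp2, Cxcl12 and Plxdc1) were at least 4-fold above and 3 (Vegfa, Tek and Thbs2) below.

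Few basement membrane genes and most interstitial matrix genes were past 4-fold. On the basement membrane list, 1 of 15 genes entered, Agrn, was at least 4-fold above and none below. Col4a1 was at 2946 CPM in E10-P56 and 1716 CPM in the adult pulse, 2.73-fold and 1.30-fold above, and Nid1 at 544 and 523 CPM against 837 and 1197 CPM. On the list of integrins and adhesion genes, 11 entered, 4 (Itga1, Itga7, Cdh2 and Mcam) at least 4-fold above and 1 (Cdh11) below. Itga1 (19.0-fold and 27.6-fold) and Itga7 (17.2-fold and 76.7-fold above) encode subunits of collagen and laminin receptors. Of the cadherins, Cdh2 (N-cadherin) was 8.55-fold and 9.89-fold above and Cdh11 14.4-fold and 4.05-fold below. On the interstitial matrix list, 20 of 29 genes were at least 4-fold below and none above. Col1a1 was at 975 and 546 CPM, 11.8-fold and 11.1-fold below, and Fbn1 8.13-fold and 6.79-fold below. All 15 fibroblast markers and the 5 tenocyte markers entered were at least 4-fold below in both libraries. Mgp, an inhibitor of calcification, was near the level of other kept cells, at 1043 and 2469.9 CPM against 1023 and 2638 CPM.

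Most cytokine and complement genes that entered were low. Of 13 genes entered, 8 were at least 4-fold below in both libraries and 1, Il34, above. Il34, a ligand of the CSF1 receptor, was at 222 and 282 CPM, 14.1-fold and 21.8-fold above, while Csf1, the other ligand of that receptor, was 8.26-fold and 4.47-fold below. C3 was 14.4-fold and 15.3-fold below, Ccl2 10.0-fold and 9.78-fold below. On the list of immediate early and heat shock genes, which respond to tissue dissociation, 20 genes entered, of which 3 were at least 4-fold below and none above. Fos was at 205 CPM in E10-P56 pericytes against 939.6 CPM in other kept cells, and at 603 against 1617 CPM in the adult pulse. Of 20 TGF-beta and BMP genes entered, none was above and 3 (Bmp4, Id2 and Gdf10) were below. Of 11 cell cycle genes, 4 entered, none of them above and 1 at least 4-fold below, with median log2 ratios of 0.13 and 0.10. The gene below was Cdkn1a, an inhibitor of the cell cycle, at 6.48 and 22.2 CPM against 94.9 and 175 CPM in other kept cells. The proliferation markers Mki67 and Top2a did not enter, with Mki67 at 3.60 and 0.741 CPM in pericytes.

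Some genes that were high in pericytes were chromosomal neighbours. Of 6260 pairs of neighbouring genes among those that entered, 36 (0.575%) had both members at least 4-fold above other cells, and 69 genes took part, where 4.79% of single genes were above. Nothing is read from this count, since no expected share was computed and Kcnj8 and Abcc9 chose the cells. Kcnj8 (chr6:142564837-142571614) and Abcc9 (chr6:142587862-142702315), given in GENCODE M21 coordinates of GRCm38, form the potassium channel pair. Rgs5 (chr1:169655501-169695813) and Rgs4 (chr1:169741477-169747642) were another, and Gucy1b3 and Gucy1a3 on chromosome 3 and Gjc1 and Higd1b on chromosome 11 were 2 more. Some pairs, such as Tbx3os1 and Tbx3, overlap or lie on opposite strands, and for these the counts of the 2 genes may not be separate.

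Pericytes were also set beside other mural cells of the same library. SMCP-rule cells (smooth muscle cell progenitors: Notch3 with Pdgfrb and Ifitm1 with Thy1 each at least 500 CPM, without Pdgfra or Dpt) numbered 99 in E10-P56 versus 35 in the adult pulse, and VSMC-rule cells 137 and 9, so the comparison was made in E10-P56 alone. Of 1725 genes with a mean of at least 100 CPM, 49 were at least 4-fold above SMCP-rule cells (2.84%) and 47 at least 4-fold below (2.72%). Of 1728 genes, 101 were at least 4-fold above VSMC-rule cells (5.84%) and 108 below (6.25%). The genes that chose these cells (Abcc9, Kcnj8 and Art3, Notch3, Pdgfrb, Ifitm1 and Thy1, Acta2, Cnn1 and Smtn) differ by construction.

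Among the largest folds above SMCP-rule cells was that of Opcml, a GPI-anchored adhesion protein at 237 CPM in pericytes and 0 UMIs in SMCP-rule cells, at least 72.7-fold higher against 3 UMIs over the group. Plxdc1 was at 385 CPM against 5.43 CPM, Tcf15 33.5-fold above, Casq2 (calsequestrin, a calcium store protein) 27.1-fold above, Cxcl12 14.8-fold above and Cpm 13.6-fold above. Hic1 was at 202 CPM in pericytes and 42.4 CPM in SMCP-rule cells, 4.77-fold above. Lower in pericytes were Dlk1 (5.76 against 741 CPM), Rgs16 (14.4 against 364 CPM), S100a4 (20.9-fold below), Thbs1 (18.0-fold below) and Cd9 (15.8-fold below). Of the 6 SMCP markers, 5 were at least 4-fold below, of which Ifitm1 and Thy1 chose the cells. Fabp4 was at 994 against 4306 CPM. Tmem176a (19.1-fold), Tmem176b (17.6-fold) and Prkar2b, a regulatory subunit of protein kinase A (17.6-fold), were also below, and Pdzd2 was 18.4-fold above.

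Several of the gene lists were also set beside SMCP-rule cells, where genes entered at a mean of 100 CPM and not 20. Of all 1725 genes entered, 2.84% were at least 4-fold above these cells and 2.72% at least 4-fold below. Of 17 other pericyte markers entered, 4 were above, Vtn, Steap4 and Rgs4 among them, and none below. Their median log2 ratio was 0.97, against 0.02 for all genes entered. Of 11 vessel tone genes, 1 (the sphingosine phosphate receptor S1pr3) was above and 1 (Adra2a) below. None of the 7 respiratory chain paralogues entered was past 4-fold in either direction, and of 5 Notch pathway genes none was above and 1 (Dlk1) below.

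On the contractile list, 16 of 20 genes entered were at least 4-fold below VSMC-rule cells and none above. Acta2, Cnn1 and Smtn, which chose the VSMC-rule cells, are among the 16, and of the other 17 genes 13 were below. Myh11 was at 488 CPM in pericytes and 6765 CPM in VSMC-rule cells, 13.9-fold below. Phospholamban (Pln) was 81.0-fold below and Sorbs2 81.8-fold below. Susd5, Slc22a3 (an organic cation transporter) and Rgs7bp were at 338, 262 and 266 CPM in VSMC-rule cells and had 2, 3 and 0 UMIs in pericytes. Higher in pericytes were Plxdc1 (385 against 3.15 CPM), Steap4 (59.0-fold above), Arhgdib (51.0-fold above), Hic1 (202 against 4.73 CPM, interval 1.74 to 10.3) and Agtr1a (41.9-fold above). Of the endothelin receptors, Ednrb was 21.5-fold above VSMC-rule cells and Ednra was 1.97-fold above. Of 13 vessel tone genes entered, 2 (Ednrb and Agtr1a) were above and 2 (P2rx1 and Ramp1) below. Of the 17 other pericyte markers entered, 9 were above and none below. Of 9 respiratory chain paralogues entered, Cox4i2, Ndufa4l2 and Higd1b were above and Ndufa4 below (55.4 against 640.5 CPM).

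**Figure D4:**
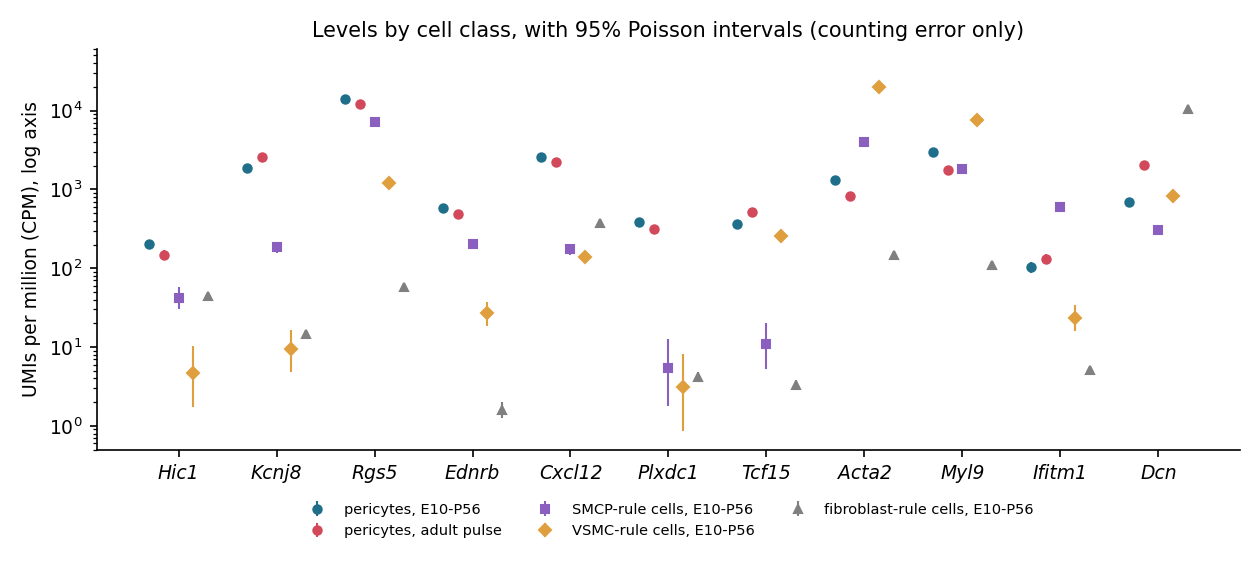
CPM (log axis) of 11 genes in pericytes of both libraries and, for E10-P56, in SMCP-rule, VSMC-rule and fibroblast-rule cells; bars are exact 95% Poisson intervals. Hic1, Kcnj8, Rgs5, Ednrb, Cxcl12 and Plxdc1 were highest in pericytes, Acta2 and Myl9 in VSMC-rule cells, Ifitm1 in SMCP-rule cells and Dcn in fibroblast-rule cells. Kcnj8, Acta2 and Ifitm1 helped to choose the classes in which they were highest.

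At the level of single cells thinned to 1500 UMIs, Rgs5 had a UMI in 99.5% of E10-P56 pericytes (98.2 to 99.9) and 99.7% of those of the adult pulse (98.6 to 100.0), against 3.68% and 1.73% of fibroblast-rule cells, a class that should lack the gene. Pdgfrb was found in 93.2% and 92.7% of pericytes and Higd1b in 54.6% and 55.7%. These shares count cells with a UMI and are given without a background share. Hic1 had a UMI in 22.8% of E10-P56 pericytes (18.8 to 27.3) and 20.3% of the adult pulse (16.4 to 24.7), against 7.72% and 6.38% of fibroblast-rule cells. Without thinning, Hic1 was seen in 45.9% and 38.5% of pericytes.

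Spread among pericytes was taken as the ratio of variance to mean over cells thinned to 1500 UMIs, for genes with a mean of at least 0.1 UMI. Its median was 1.07 in E10-P56 (2861 genes) and 1.06 in the adult pulse (2737 genes), and at such low means it stays near 1 whether or not cells differ. The same 10 genes had the largest ratios in both libraries. They were Malat1, Gm42418, the heat shock genes Hspa1a and Hspa1b, and the immediate early genes Fos and Jun. The others were the fibroblast genes Gsn and Dcn, Mgp and Fabp4. Hspa1a was at 0 UMIs in 71.3% of E10-P56 pericytes, and the 10% of cells with most held 84.2% of its UMIs. For Malat1 and Gm42418 in E10-P56, the 10% of cells with most held 18.7% and 24.3%. A large ratio thus did not always mean that few cells held the UMIs. Fabp4 was at 0 in 57.6% of E10-P56 pericytes and 84.1% of those of the adult pulse, with up to 30 and 27 UMIs in a single cell. Dcn ranged from 0 to 27 UMIs in E10-P56 and from 0 to 64 in the adult pulse.

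Most genes of pericytes were at similar levels at both labelling times. Of 3685 genes with a mean of at least 50 CPM, 3304 (89.7%) were within 1.5-fold, 28 were at least 2-fold higher in E10-P56 (0.76%) and 45 at least 2-fold lower (1.22%). The counts depended on the settings: 43 genes were higher with a marker minimum of 1000 CPM and 51 after thinning to 1500 UMIs, and of the 28 genes 12 and 14 were called again. With the mean CPM minimum at 0.5 and 2 times its value, 83 and 11 were higher and 117 and 22 lower. Of the 73 genes past 2-fold, 27 also differed at least 2-fold the same way in fibroblast-rule cells, 10 of the 28 higher (35.7%) and 17 of the 45 lower (37.8%), and 29 did so in all other kept cells, 13 higher (46.4%) and 16 lower (35.6%). Among all 3685 genes, 94 (2.55%) were at least 2-fold higher in E10-P56 and 77 (2.09%) lower in fibroblast-rule cells, and 141 (3.83%) and 50 (1.36%) in other kept cells. Genes that differed in both classes included Gm26825 (13.4-fold higher in pericytes, 10.1-fold in fibroblast-rule cells), Rpl29 (10.1-fold lower and 9.21-fold lower), mt-Atp8 (6.60-fold lower and 5.52-fold lower) and Gm20594, which had 0 UMIs in E10-P56 pericytes and 222 CPM in the adult pulse, at least 103-fold lower against 3 UMIs over the group. Also among the largest ratios were Gm10709, Cyb5r1, Cnn2, Erdr1, Col18a1 and Fabp5, 2.44-fold to 8.88-fold higher in E10-P56 pericytes. Myoc, Cxcl14, Ifi27l2a and Snhg9 were 4.17-fold to 6.78-fold lower. When pericytes with a Pdgfra or Dpt UMI were left out, Cxcl14 was at 24.4 and 34.7 CPM (ratio of 0.701). It was then no longer past 2-fold. Ifi27l2a, an interferon-induced gene, was at 37.4 and 197 CPM in pericytes and 1.06-fold lower in fibroblast-rule cells. Library, mice, tamoxifen dosing, Cell Ranger version and, by the study's text, age at collection moved with these values. Their part was not tested.

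**Figure D5:**
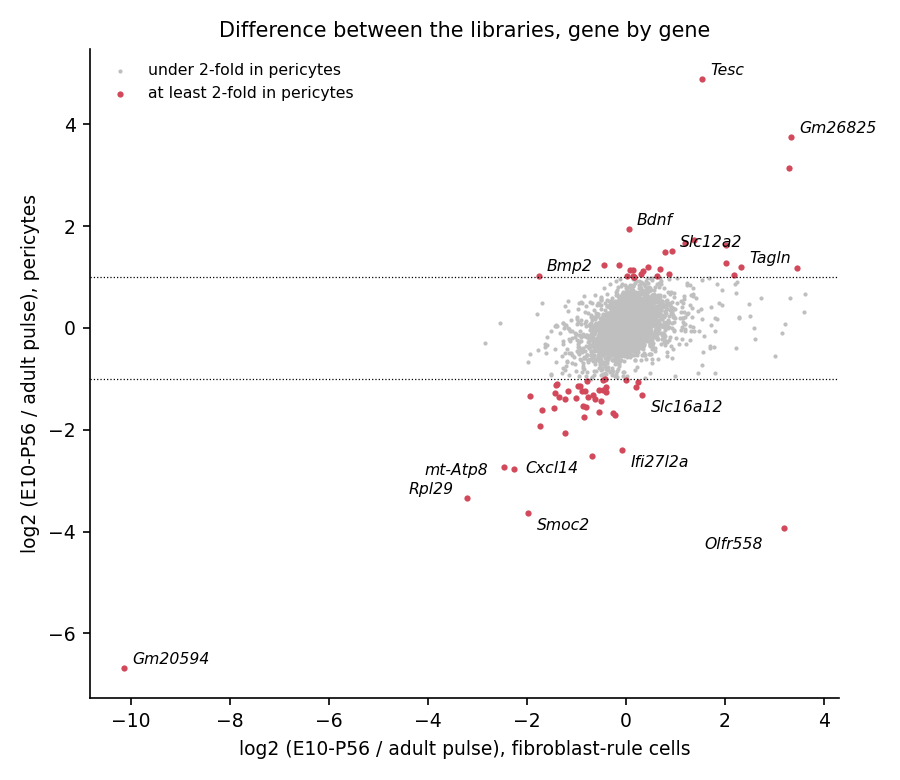
Log2 ratio of CPM in E10-P56 to CPM in the adult pulse for 1 point per gene, in fibroblast-rule cells (horizontal axis) and pericytes (vertical axis). Dotted lines mark 2-fold in pericytes; Gm26825, Rpl29, mt-Atp8 and Gm20594 (drawn at 3 UMIs where it had 0) differed in both classes, while Olfr558 lay on opposite sides and Bdnf differed in pericytes alone.

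Some genes differed in pericytes by more than in fibroblast-rule cells. Tesc, a calcium-binding protein that regulates sodium-proton exchange, was at 397 CPM in E10-P56 pericytes (364 to 431) and 13.3 CPM in the adult pulse (7.90 to 21.1), 29.8-fold higher, against 2.91-fold in fibroblast-rule cells (on 3.39 and 1.16 CPM) and 6.86-fold in all other kept cells. Bdnf, a neurotrophin, was at 96.5 CPM (80.8 to 114) and 25.2 CPM (17.4 to 35.2), 3.83-fold higher, against 1.04-fold in fibroblast-rule cells. In all other kept cells Bdnf was lower in E10-P56, with a ratio of 0.531. Slc12a2 was at 1161 and 409.7 CPM, 2.83-fold higher, against 1.90-fold in fibroblast-rule cells and 3.44-fold in all other kept cells. Olfr558, an olfactory receptor family gene, was lower, at 13.7 CPM (8.24 to 21.4) in E10-P56 and 207 CPM (184 to 233) in the adult pulse. In fibroblast-rule cells it was 9.12-fold higher in E10-P56, and in VSMC-rule cells of E10-P56 it was at 540.4 CPM. The differences between cell classes were not tested.

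Genes of fibroblasts and of the immediate early response were also among those lower in E10-P56 pericytes. Of the 13 fibroblast markers entered, 3 (Dcn, Gsn and Smoc2) were at least 2-fold lower and none higher, with a median log2 ratio of -0.60. Of 17 immediate early and heat shock genes 5 were lower, with a median of -0.67. Over all 3685 genes, 45 (1.22%) were lower. The same lists had medians of -0.29 and -0.48 in other kept cells, and the median gene was at 0.06 in pericytes. Dcn was at 691 CPM in E10-P56 pericytes and 2011 CPM in the adult pulse. When pericytes with a Pdgfra or Dpt UMI were left out, Dcn was at 459.5 and 487 CPM and Gsn at 652 and 1032 CPM, both under 2-fold apart (ratios of 0.943 and 0.632), while Smoc2 was at 9.57 and 42.3 CPM. Both genes were thus past 2-fold with those cells and not without them, and Smoc2 was past it either way. The sum over all 15 fibroblast markers without those cells (4710 against 3377 CPM) is partly set by the choice, since Pdgfra and Dpt are in the sum. Fos was at 205 and 603 CPM in all pericytes and at 216 and 568 CPM without those cells. Of the 73 genes, 22 of the 28 higher and 38 of the 45 lower were still at least 2-fold apart without them.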

How the data were processed

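A pair of 10x Genomics single-cell libraries was analysed as deposited: the authors' files hold UMI counts per gene and barcode, made with Cell Ranger 5.0.0 (E10-P56) and 3.0.2 (adult pulse, both per the file headers) on a modified mm10 genome, and were not normalized. The library chemistry is not told apart in the labels. Library totals were 67460919 UMIs (E10-P56) and 69153173 UMIs (adult pulse). Of 28001 features, 56 share a symbol with another and 27722 have a position in GENCODE M21.

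Cells were kept from 1500 UMIs upwards where the mitochondrial share did not pass 10%. Counts of the cells of a class were summed per library and divided by their total. Since there was 1 library per labelling time, no test was made. Folds were called at 4 (against other cells) or 2 (between libraries). The mean CPM minimums were 20, 100 and 50 for other kept cells, mural cells and labelling times. A side with under 3 UMIs was set to 3 UMIs. The members, gene lists and rules were chosen with earlier results of these data known. Genes were named from the gene lists (not all of them) and the cell rules, and by fold the 25 highest and 10 lowest against other kept cells, 8 each way against mural cells, 10 each way between libraries, and the 10 most uneven. No doublets were removed: Scrublet (scanpy 1.11.5) marked 15 cells (0.246%) and 4 cells (0.0467%) by its automatic limit, too few to be used, so leaving out the top 5% of scores was an alternative. The fold calls between libraries were tested on simulated data, where 100% of 4-fold changes in either direction were recovered over 3645 genes with a median ratio of 4.06 for raised genes, and 0% of unchanged genes passed 2-fold. Only 4-fold changes were simulated, so the recovery of smaller changes past the 2-fold limit was not examined. That simulation held counting noise only, so it says nothing about calls that arise from differences between animals or libraries. Python 3.11.15, numpy 2.4.6, pandas 2.3.3, scipy 1.17.1 and matplotlib 3.10.9 were used. Alternatives changed the marker level, UMI minimum, thinning, CPM minimum, scaling and comparison cells. Some genes of the lists are counted but not reported by name here.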

Additional observations from a re-analysis of the deposited data

Results flagged for a closer look

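Among the genes at least 2-fold apart between the libraries in pericytes, 3 were at least 2-fold apart the other way in all other kept cells, and in each case the difference between the cell classes was not tested. Bmp2, a bone morphogenetic protein, had a ratio of E10-P56 to adult pulse of 2.041 in pericytes and 0.3538 in other kept cells. For Olfr558 the ratio was 0.06595 in pericytes and 8.04 in other kept cells. For Slc16a12, a monocarboxylate transporter family gene, it was 0.3989 in pericytes, 5.184 in other kept cells and 1.26 in fibroblast-rule cells.

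Barcodes left out by the filters also met the marker rule. Below the minimum of 1500 UMIs there were 167 such barcodes in E10-P56 versus 46 in the adult pulse, and above the mitochondrial limit there were 15 and 8. A further reporter feature named SSM2GFP in the files had UMIs in pericytes although the labels name no such allele, at 7.2 CPM in E10-P56 and 35.56 CPM in the adult pulse.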

How the results depend on the processing

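No paired analysis was possible because each labelling time had 1 library. The share of kept cells that were pericytes depended on the limits: for E10-P56 and the adult pulse it was 8.264% and 5.393% with a marker minimum of 1000 CPM, 4.567% and 3.654% with 4000, 4.216% and 2.848% with at least 3000 UMIs, and 5.479% and 3.786% without members that had a Pdgfra or Dpt UMI. In E10-P56 it was 7.227% with at least 1000 UMIs and 7.187% after thinning to 1500 UMIs. The number of genes at least 2-fold higher in E10-P56 pericytes (28) was 43 with the lower marker minimum, 51 after thinning, and 83 and 11 with the mean CPM minimum at 0.5 and 2 times its value, where the number lower (45) was 117 and 22. Of the 28 genes, 12 were among the 43 and 14 among the 51, and of the 45, 32 and 31 were again called under these 2 alternatives. Counts against other kept cells stayed within 1.5 times under every alternative run, from 228 to 388 above and from 185 to 396 below. Of these alternatives, fibroblast-rule cells as the comparison (353 above, 283 below) and leaving out cells with high Rgs5 (319 and 279) were chosen after seeing the data. Hic1 ranged from 150.6 to 235.5 CPM in E10-P56 and from 123.5 to 161.1 CPM in the adult pulse. The cause of these shifts was not tested. With 1 library per time, differences between animals could not be measured, and at a median of 3201 UMIs per pericyte in E10-P56 a gene without a UMI in a cell may still be transcribed there.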
